A study of Mus musculus with 12 samples.

Results

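Transcripts of 6 genes of the absorptive enterocyte were followed in the mouse small intestine during fasting. They are Anpep (aminopeptidase N), LOC226413 (lactase, now Lct), Vil (villin, now Vil1), Calb3 (calbindin-D9k, now S100g), Cubn (cubilin) and Car1 (carbonic anhydrase 1). The members were taken as the probes that carry these names in the scanner files of the 12 h arrays. Each gene has 1 such probe, so that 6 of the 20280 probes tested, or 6 of 18116 gene names, are described. The genes were picked with their changes in view. Their differences between time points are therefore given as a description without a test. Tests are kept for a wider set of enterocyte genes, whose lists were also chosen with earlier results of these data known.

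Enterocytes absorb nutrients through a brush border of densely packed microvilli. Villin bundles the actin core of these microvilli, whereas aminopeptidase N and lactase are hydrolases of their membrane that release amino acids from peptides and split milk sugar. Calbindin-D9k carries calcium through the cytosol and is induced by vitamin D, cubilin is the receptor that takes up the complex of vitamin B12 and intrinsic factor, and carbonic anhydrase 1 interconverts carbon dioxide and bicarbonate.

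Male FVB mice of 6 weeks were fed (0 h) or fasted for 12, 24 or 72 h with free access to water, and were kept warm with a lamp from 24 h on. Each time point comprised 6 mice, combined into 3 pools of 2 mice, and each pool was hybridized as Cy3-labelled cDNA to its own 2-colour array against Cy5-labelled cDNA of fed mice. This reference is described as a pool of 6 fed animals, but for fed replicate 3 the source label names the mice of its own Cy3 pool. RNA came from the whole wall of the small intestine, so that a lower level can reflect fewer cells of a type or less RNA per cell. On the arrays these cannot be told apart. In the study's tissue sections, enterocyte and smooth muscle volume fractions and goblet cell numbers did not differ significantly between fed and 72 h. Values are log2(Cy3/Cy5) after background correction and quantile normalization, n = 3 pools per time point unless stated, and a call means an adjusted p under 0.05 in limma.

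The reference itself did not give the same signal on all arrays. Arrays of fed and 72 h pools came in 1 file format, those of 12 h and 24 h pools in a second one. The median Cy5 intensity of an array was 124 to 142 in the first format, whereas it reached 436 at 24 h and 627 at 12 h. In the normalized Cy5 channel, 21.9% of probes were called between 12 h and fed, 20.4% between 24 h and fed, and 0% between 72 h and fed. Comparisons of 12 h or 24 h with fed therefore cannot be told apart from the file format, whereas 72 h against fed and 24 h against 12 h lie within a format. Between 24 h and 12 h, 14.3% of probes were still called in Cy5, so that a shared format did not remove differences in the reference. On an array the median probe reached 3.36 to 6 times background in Cy3 and 1.65 to 2.11 times background in Cy5. Cy3 and Cy5 changes are given apart for this reason.

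The probes of Anpep, Vil, Calb3, LOC226413 and Cubn were well above background in Cy3 on all 12 arrays, and no member spot was saturated. Calb3 reached up to 666 times background in Cy3 and Vil up to 350 times. Car1 was the dim member, at 2.51 to 21 times background, and was not well above background in Cy3 on fed replicate 2 and 72 h replicate 3. The scanning software marked 5 of the 12 LOC226413 spots, 2 of the Cubn spots and 1 Car1 spot as outliers because of uneven signal, and these were left out unless stated.

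**Figure D1:**
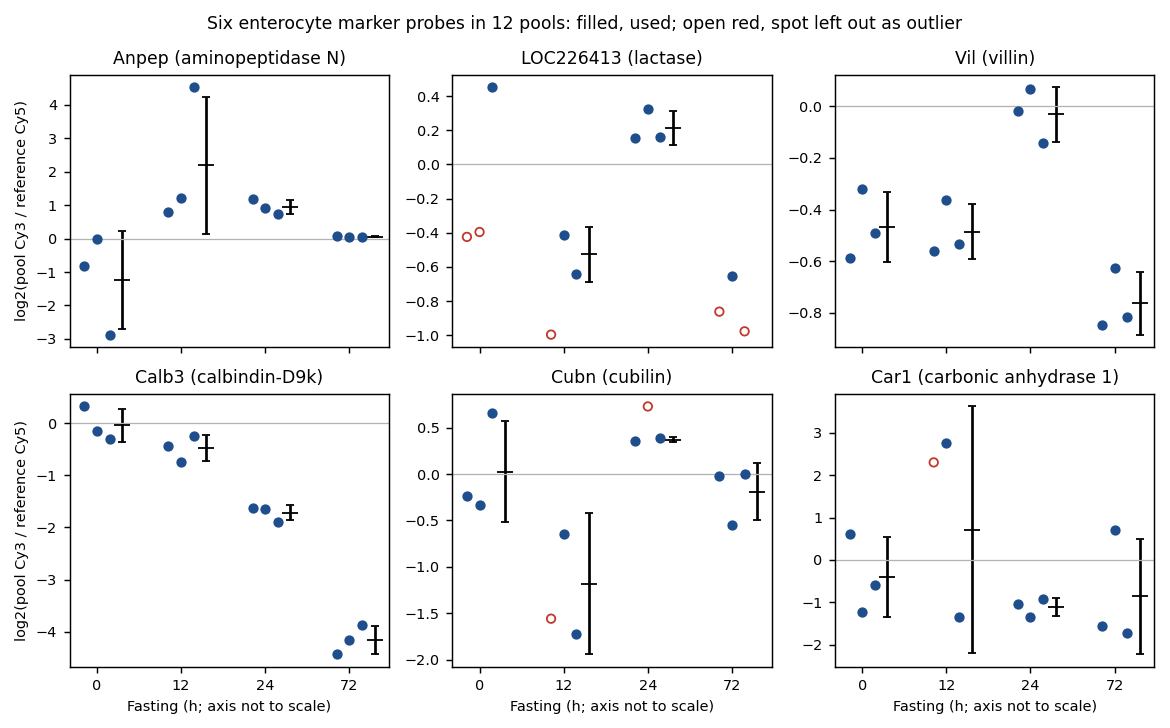
Log2(Cy3/Cy5) of the 6 member probes in each of the 12 pools against hours of fasting (0 h is fed). Filled points were used, open red points are spots left out as outliers, shown with their values when kept, and bars give the mean ± SD of the points used; Calb3 shows the 72 h pools at -4.42 to -3.87, apart from all others.

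Calb3 showed a graded decline over the fast. In the fed pools its log2(Cy3/Cy5) was 0.32, -0.16 and -0.30, and in the 12 h pools -0.44, -0.74 and -0.25. The 24 h pools gave -1.63, -1.64 and -1.89, and the 72 h pools -4.42, -4.16 and -3.87. The 12 h pools overlapped the fed pools. Every 24 h pool lay below every fed and 12 h pool, and every 72 h pool lay below all of these. Of all probes, 19.9% at 24 h and 20.6% at 72 h had every pool below every fed pool. Every 24 h pool lay below every 12 h pool for 10.9% of all probes. Set against fed, the 12, 24 and 72 h means differed by -0.43, -1.67 and -4.10 on the log2 scale (SE 0.20 each), which is 1.35-fold, 3.19-fold and 17.2-fold lower. The small 12 h difference depended on the scaling, at -0.19 with loess within arrays and -1.27 with median centring. Of the 20272 probes with a value at 72 h none had a lower difference from fed, and at 24 h 20 did.

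The difference in Calb3 lay in the pools and not in the reference. Relative to fed, normalized Cy3 differed by -0.45, -1.44 and -4.02 at 12, 24 and 72 h (SE 0.22 each), and Cy5 by -0.02, 0.23 and 0.08 (SE 0.16 each). Before normalization the Cy3 spot read 27324, 10230 and 20111.5 in the fed pools and 576, 595 and 1610.5 in the 72 h pools, against backgrounds of 40 to 52. The step from 12 h to 24 h, which lies within a file format, was -1.24 ± 0.20 (95% interval -1.67 to -0.81), and -0.99 in Cy3 alone. It was -0.88 with median centring in place of quantile normalization.

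The 300 bases around the annotated start of S100g, the current name of Calb3, and of Lct, the lactase gene, are shown because Cdx2 and the GATA factors are textbook regulators of genes of this kind in the gut. The sequences are those of RefSeq for GRCm38.p6, at chrX:162964550-162964849 and chr1:128328269-128328568, both on the minus strand, and run from 250 bases before to 50 bases after the start. Capitals mark the letters TTTAC or TTTAT, taken as Cdx forms, and AGATAA, taken as the GATA form, on either strand.
S100g: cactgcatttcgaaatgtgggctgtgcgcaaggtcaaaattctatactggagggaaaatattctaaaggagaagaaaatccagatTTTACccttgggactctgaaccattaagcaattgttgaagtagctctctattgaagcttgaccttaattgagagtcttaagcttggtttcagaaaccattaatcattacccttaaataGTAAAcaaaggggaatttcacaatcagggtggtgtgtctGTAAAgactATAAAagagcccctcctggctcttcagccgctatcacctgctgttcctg
Lct: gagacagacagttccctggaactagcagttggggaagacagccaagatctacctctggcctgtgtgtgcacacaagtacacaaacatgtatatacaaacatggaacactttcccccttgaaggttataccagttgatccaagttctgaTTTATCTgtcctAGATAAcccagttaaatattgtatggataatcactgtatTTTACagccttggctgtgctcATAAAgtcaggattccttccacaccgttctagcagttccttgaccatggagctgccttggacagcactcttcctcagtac
The S100g window holds TTTAC at 3 places and TTTAT at 1, and AGATAA at 0. The Lct window holds TTTAC at 1 place, TTTAT at 2 and AGATAA at 2, and here 1 TTTAT shares bases with 1 of the AGATAA matches. Of 32851 mouse promoter windows of this length, 31.5% hold TTTAC, 40% hold TTTAT and 11.2% hold AGATAA. These are matches of letters only.

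Lactase gave less certain values, since its spot was left out on 2 fed, 1 of the 12 h and 2 of the 72 h arrays. The usable log2(Cy3/Cy5) values were 0.45 in fed replicate 3, -0.41 and -0.64 at 12 h, 0.16, 0.33 and 0.16 at 24 h and -0.66 in 72 h replicate 2. With the marked spots kept, the fed pools read -0.42, -0.40 and 0.47, the 12 h pools -0.997, -0.40 and -0.62, the 24 h pools 0.16, 0.32 and 0.17, and the 72 h pools -0.86, -0.65 and -0.98. With the marked spots kept, every 72 h ratio lay below every fed ratio, whereas in Cy3 alone these pools overlapped. Without them the 72 h value was also lower, but 1 array against 1 cannot overlap. The 24 h pools lay below the fed value only while it rested on 1 array. With marked spots left out, 20.6% of all probes had every 72 h pool below every fed pool. This share is no measure for 1 array against 1.

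The size of the lactase difference depended on those spots. Without them the differences from fed at 12, 24 and 72 h were -0.98 ± 0.25, -0.24 ± 0.24 and -1.11 ± 0.29. With them they were -0.56, 0.33 and -0.71, with an SE of 0.23 for each, and without them but with median centring -1.76, -0.73 and -1.78. The 24 h value turned its sign between these settings, and those at 12 h and 72 h did not. In the channels, with the spots kept, Cy3 differed from fed by -0.73, 0.07 and -0.58 and Cy5 by -0.18, -0.26 and 0.13 at 12, 24 and 72 h. No test was made for lactase.

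Anpep, the other brush-border hydrolase, had higher ratios in all fasted pools than in any fed pool. Of all probes, 14%, 20.5% and 21.2% had every pool above every fed pool at 12, 24 and 72 h. In Cy3 alone only the 24 h pools of Anpep lay above every fed pool, and those of 12 h and 72 h overlapped them. The fed pools gave log2(Cy3/Cy5) of -0.81, -0.026 and -2.87, and the 12 h pools 0.81, 1.22 and 4.54. The 24 h pools gave 1.18, 0.91 and 0.74, and the 72 h pools 0.09, 0.04 and 0.05. Fed replicate 3 and 12 h replicate 3 stood apart from the other pools of their time points, in opposite directions. The differences from fed were 3.43, 2.18 and 1.30 at 12, 24 and 72 h (SE 0.78 each), or 10.8-fold, 4.54-fold and 2.46-fold.

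Those outlying Anpep values arose in different channels. On fed replicate 3 the Cy3 spot read 2722, against 12815 and 11878.5 on the other fed arrays. On 12 h replicate 3 the Cy5 spot, that is the fed reference, read 474.5, against 6842 and 8557 on the other 12 h arrays. Neither was marked as an outlier by the software. Of the 12 h difference, 1.30 ± 0.48 lay in Cy3 and -2.13 ± 0.80 in Cy5, whereas at 72 h 1.13 ± 0.48 lay in Cy3 and -0.16 ± 0.80 in Cy5. Without these 2 arrays, a setting chosen after seeing the data, the differences from fed were 1.46 ± 0.24, 1.38 ± 0.22 and 0.48 ± 0.22 at 12, 24 and 72 h.

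Between 24 h and 72 h, every Anpep ratio at 72 h lay below every ratio at 24 h, as for 21.7% of all probes. The difference was -0.89 ± 0.78 (95% interval -2.55 to 0.78). The spread in this fit is shared by all time points and holds the outlying arrays. When only the 24 h and 72 h arrays were fitted, the same difference had an SE of 0.14. Without fed replicate 3 and 12 h replicate 3 it was -0.90 ± 0.20, and in Cy3 alone -0.45.

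**Figure D2:**
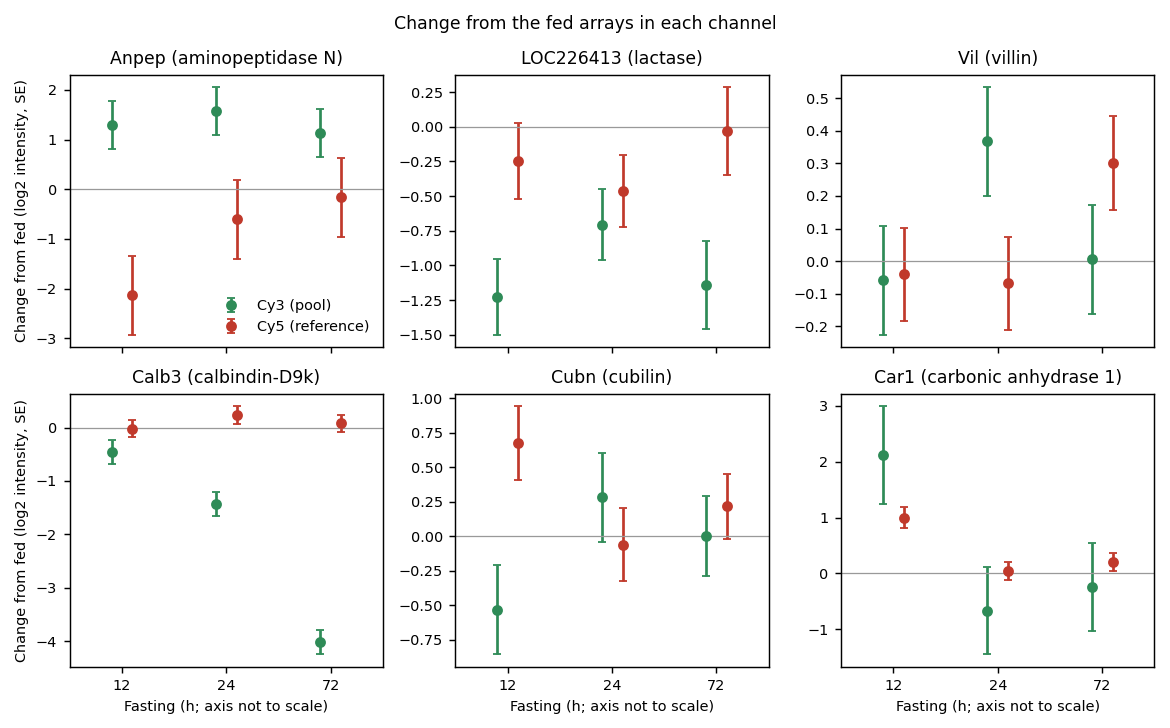
Change from the fed arrays (log2 intensity, error bars SE of the difference) of the 6 members at 12, 24 and 72 h, with the Cy3 channel of the pools in green and the Cy5 channel of the reference in red, marked outlier spots left out. Calb3 moves in Cy3 with Cy5 near 0, whereas the 12 h value of Anpep has its larger part in Cy5, at -2.13.

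Vil, the structural member, varied least. The fed pools had ratios of -0.59, -0.32 and -0.49, and the 12 h pools of -0.56, -0.36 and -0.53. The 24 h pools had -0.018, 0.067 and -0.14, and the 72 h pools -0.85, -0.63 and -0.82. The 12 h pools lay within the range of the fed pools, the 24 h pools above it and the 72 h pools below it. Of all probes, 20.5% had every 24 h pool above every fed pool, and 20.6% had every 72 h pool below. From fed the Vil pools differed by -0.018, 0.44 and -0.30 (SE 0.15 each). At 72 h normalized Cy3 differed by 0.01 ± 0.17 and Cy5 by 0.30 ± 0.14, so that the lower ratio lay in the reference channel. At 24 h Cy3 differed by 0.37 ± 0.17 and Cy5 by -0.07 ± 0.14, and the ratio turned to -0.25 with median centring, under which the 12 h and 72 h differences were -0.94 and -1.04. From 12 h to 24 h the difference was 0.45 ± 0.15 (95% interval 0.14 to 0.77), with all 24 h pools above all 12 h pools, as for 12.7% of all probes.

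Cubn, the vitamin B12 receptor, had its lowest ratios at 12 h. The values were -0.24, -0.34 and 0.66 in the fed pools, -0.65 and -1.72 in 2 pools at 12 h, 0.35 and 0.39 in 2 pools at 24 h, and -0.018, -0.55 and -0.00079 at 72 h. The marked spots of 12 h replicate 1 and 24 h replicate 2 read -1.56 and 0.73 when kept. The 12 h pools lay below all others, whereas the 72 h pools overlapped the fed pools. Of all probes, 16.8% had every 12 h pool below every fed pool. The differences from fed were -1.21 ± 0.34, 0.35 ± 0.34 and -0.22 ± 0.30. At 12 h, Cy3 differed by -0.53 ± 0.32 and Cy5 by 0.68 ± 0.27. With the marked spots kept, Cy3 differed by -0.89 and Cy5 by 0.47, so that the channel with the larger part depended on those spots. The 12 h difference was -0.67 without 12 h replicate 3 and -0.35 without fed replicate 3 as well, and with median centring it was -1.85 and that at 24 h turned to -0.14. From 24 h to 72 h it was -0.56 ± 0.34 (95% interval -1.30 to 0.18), and -0.55 ± 0.18 without fed replicate 3 and 12 h replicate 3.

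Car1 spread widely among pools of the same time point. The fed pools had ratios of 0.61, -1.24 and -0.58, and the 2 usable pools of 12 h had 2.77 and -1.34. The marked spot of 12 h replicate 1 read 2.30 when marked spots were kept, and the 12 h difference from fed was then 1.66 ± 0.87. The 24 h pools had -1.05, -1.34 and -0.92, and the 72 h pools -1.57, 0.71 and -1.72. The fed pools overlapped the pools of every other time point. Against fed they differed by 1.12 ± 0.94, -0.70 ± 0.84 and -0.45 ± 0.84, each of the order of its SE, and the first became -0.93 without 12 h replicate 2 and 3.18 without 12 h replicate 3. From 24 h to 72 h the difference was 0.24 (95% interval -1.57 to 2.06), and it reversed to -0.55 without 72 h replicate 2. At 12 h Cy3 differed from fed by 2.12 ± 0.87 and Cy5 by 1.00 ± 0.18, at 24 h by -0.67 ± 0.78 and 0.034 ± 0.16, and at 72 h by -0.24 ± 0.78 and 0.21 ± 0.16.

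In the fits against fed, 3 of the 6 member probes were called at 12 h (of all probes 10.9%), 1 at 24 h (10.1%) and 2 at 72 h (10.6%). Since the genes were chosen on these contrasts, nothing is read from these counts. The members did not move as a group. Across the 12 arrays, with marked spots kept, Pearson's r of the log ratios between pairs of members ranged from -0.60, for Anpep and Cubn, to 0.79, for LOC226413 and Vil. The arrays share the reference and its 2 formats, so that these r values are a description only.

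Among 3222 probes with a gene symbol and a value and Cy3 signal on all 12 arrays, the 3 whose log ratios ran most like those of Calb3 were H2-Ab1 (r = 0.96), Coro1b (r = 0.95) and Igj (r = 0.95), each over 12 arrays. H2-Ab1 codes for a class II histocompatibility chain and Igj for the joining chain of secreted immunoglobulins. Their differences from fed at 72 h were -1.76, -1.44 and -3.22, so that none equalled that of Calb3. For Anpep they were Catns, now Ctnnd1 (r = 0.98), Aplp2 (r = 0.97) and Eno1 (r = 0.97), which had differences of 1.76, 1.82 and 2.86 at 12 h. For Vil the nearest probes were Tulp4, Lmnb2 and Hsp86-1, at r of 0.86 to 0.84 over 12 arrays. LOC226413 ran most like Top1, Pvrl3 and Ddx26 over 7 arrays (r = 0.99 to 0.98). Cubn ran like Pafah1b1, Sgpp1 and Top3b over 10 arrays (r = 0.96 to 0.94), and Car1 like Iga (now Cd79a), Cd44 and Pknox1 over 11 arrays (r = 0.86 to 0.75). In Cy3 alone, r with the same 3 probes was 0.91 to 0.97 for Calb3, 0.65 to 0.90 for Anpep and 0.33 to 0.39 for Vil. For LOC226413 this Cy3 r was -0.36 to 0.74, for Cubn 0.40 to 0.57 and for Car1 0.51 to 0.82.

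To place the members, 6 lists of enterocyte genes, chosen with earlier results of these data known, were tested. Counts and p-values for these lists are therefore no independent test. Of the 148 genes of the lists 79 were found on the array, and 73 were left without the members. Fabp1, Fabp2, Sis, Amn and Trpv6 were not analysed here. At 72 h 8 of the 73 rose and 10 fell, together 24.7% of them, against 4.8% and 5.8% of all probes, and the median difference from fed was 0.12 against 0.01 over all probes. Of those 18, 2 that rose and 9 that fell were also called in Cy3. In Cy3 alone 3 of the 73 rose and 10 fell, where 8.65% of all probes were called. In Cy5 limma called 0 of the 73, as it called 0% of all probes there. At 12 h 18 rose and 5 fell (31.5%, against 4.9% and 6.02% of all probes). However, 22 of the 73 were called in Cy5 and only 1 rise and 1 fall were called in Cy3 as well. In Cy3 alone 4 of the 73 rose and 3 fell, where 15% of all probes were called. At 24 h 8 rose and 2 fell (13.7%, against 3.79% and 6.26% of all probes), of which 3 and 2 were called in Cy3 as well. In Cy3 alone 12 of the 73 rose and 8 fell, where 24.6% of all probes were called. On the ratio, the median difference was 0.25 at 12 h and 0.23 at 24 h, and over all probes -0.018 and 0.019. The direction of the calls depended on the scaling. With median centring 8 rose and 14 fell at 12 h, 6 rose and 6 fell at 24 h, and 2 rose and 13 fell at 72 h, whereas with loess within arrays 11 rose and 7 fell at 72 h. When only the 12 h and fed arrays were fitted, limma called 0 of the 73 at 12 h, and in the fit of all arrays 38 of them had an unadjusted p under 0.05.

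**Figure D3:**
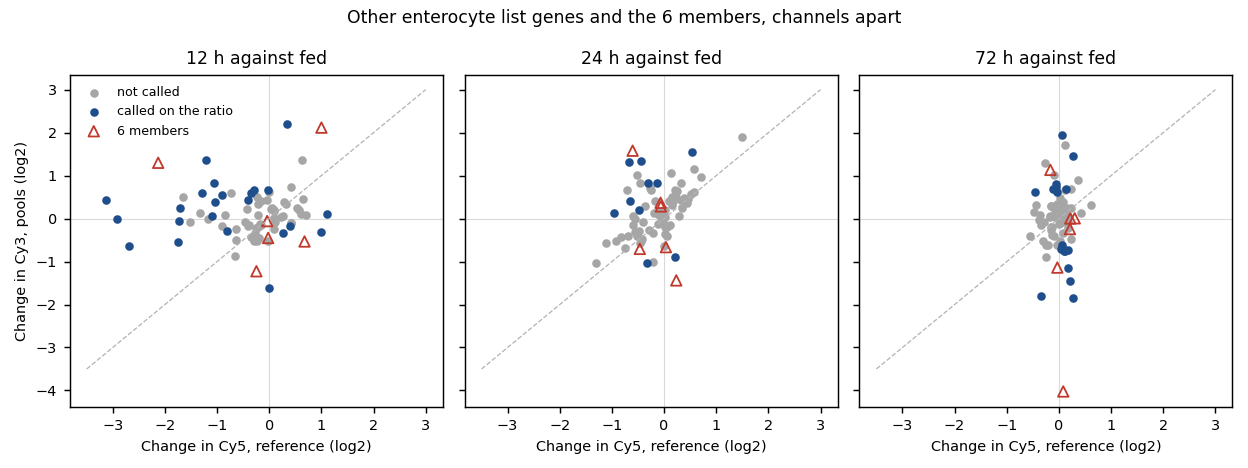
Change of Cy3 (pools) against change of Cy5 (reference), both log2 relative to the fed arrays, for the 73 other enterocyte list genes (points, blue where the ratio was called) and the 6 members (red triangles). On the dashed line the ratio does not differ from fed; at 12 h the called genes spread along the Cy5 axis, and at 72 h along the Cy3 axis, where Calb3 lies lowest at -4.02.

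In the list of calcium, iron and phosphate absorption, to which Calb3 belongs, all genes called at 72 h fell. Of its 15 other measured genes 0 rose and 5 fell, against 4.8% and 5.8% of all probes. The rest, with Slc34a2 and Vdr among them, were not called. All 5 falls were called in Cy3 as well, and the list's median difference was -0.32. With median centring 0 rose and 5 fell as well, and with loess within arrays 0 rose and 4 fell. The iron exporter gene ferroportin (Slc40a1, named Slc39a1 in the files) had log2(Cy3/Cy5) of 0.0072, -0.28 and 0.43 in the fed pools and -2.19, -2.08 and -1.91 at 72 h. It fell by 2.11 ± 0.20, or 4.32-fold (limma, adjusted p = 1e-04), and had fallen by 0.72 at 24 h (adjusted p = 0.039). The ferritin heavy chain gene Fth1, which stores iron, fell by 1.45 ± 0.21, and it fell on its other probe too. The ferritin light chain gene Ftl1 fell by 0.75. The transferrin receptor gene Tfrc fell by 1.32 ± 0.27 on its brightest probe (adjusted p = 0.0071), whereas its other 2 probes differed by -0.014 and -0.48 and did not pass.

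The phosphate carrier Slc34a2 moved otherwise. Its ratio was -0.05, -0.06 and 0.32 in the fed pools, 1.97 and 1.87 in 2 pools at 12 h and 0.99, 1.26 and 0.83 at 24 h. It thus rose by 1.85 ± 0.27 at 12 h (adjusted p = 0.0029) and by 0.96 ± 0.24 at 24 h (adjusted p = 0.026), with Cy3 changes of 2.19 and 0.82 that passed too. At 72 h it was -1.09, -0.034 and -0.30, a difference of -0.55 ± 0.24 that did not pass (adjusted p = 0.17). With marked spots kept, the 12 h rise passed (adjusted p = 0.0026) and the 24 h rise did not (adjusted p = 0.056). The other Slc34a2 probe differed by 0.14 at 12 h and did not pass (adjusted p = 0.78). That probe was well above background in Cy3 on only 1 of the 3 fed arrays. For the vitamin D receptor gene Vdr the brightest probe did not pass at any time point, with differences of 0.74, 0.93 and -0.11. In Cy3 it rose by 1.37 at 12 h (adjusted p = 0.028) and by 1.06 at 24 h (adjusted p = 0.038). Without fed replicate 3 and 12 h replicate 3 its ratio rose by 1.47 and 1.41 (adjusted p = 0.0079 and 0.00069). Its other 2 probes rose by 1.95 and 1.58 at 12 h and by 1.78 and 1.16 at 24 h.

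**Figure D4:**
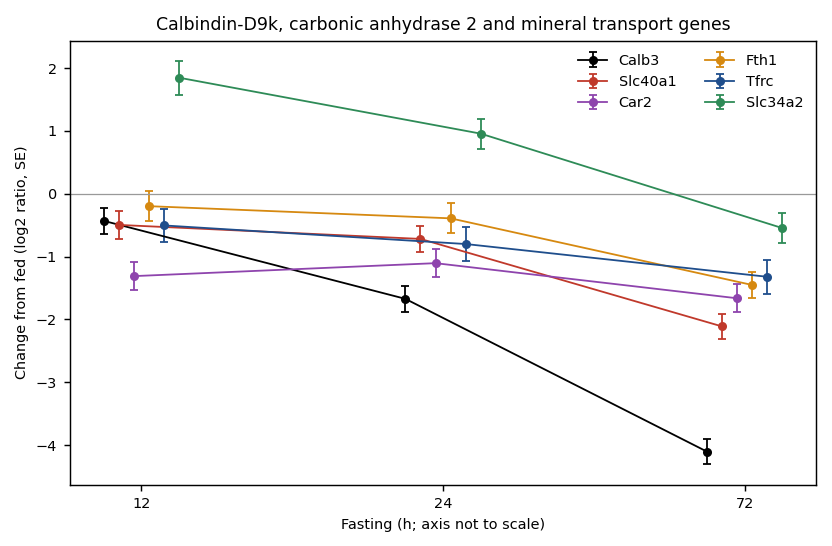
Change of log2(Cy3/Cy5) from fed (error bars SE) at 12, 24 and 72 h for Calb3, Car2, 3 genes of iron handling (Slc40a1, Fth1, Tfrc) and the phosphate carrier Slc34a2, each on its brightest probe. Calb3 goes from -0.43 to -4.10, whereas Slc34a2 goes from 1.85 at 12 h to -0.55 at 72 h.

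Among the carbonic anhydrases, 1 of the 7 other than Car1 rose and 1 fell at 72 h, against 4.8% and 5.8% of all probes. Car2, the abundant cytosolic form, had ratios of 0.08, -0.39 and 0.36 in the fed pools and -1.34, -0.86 and -1.70 at 12 h. The 24 h pools gave -1.24, -1.02 and -1.02, and the 72 h pools -1.76, -1.60 and -1.59. Every fasted pool lay below every fed pool, a separation that 16.8%, 19.9% and 20.6% of all probes showed at 12, 24 and 72 h. Car2 fell by 1.31, 1.10 and 1.66 (SE 0.22 each; adjusted p = 0.005, 0.01 and 0.00049), of which Cy3 made up -0.32, -0.90 and -1.44, and the Cy3 change did not pass at 12 h (adjusted p = 0.37). Car14 rose by 0.80 at 72 h. The membrane-bound Car4 differed by 1.33, 0.44 and 0.20 and did not pass.

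Of the 9 other brush-border hydrolases, 1 rose and 2 fell at 72 h, against 4.8% and 5.8% of all probes. These counts were 2 and 0 with loess within arrays, and 0 and 2 with median centring. The metalloprotease subunit gene Mep1a rose by 0.85 ± 0.21 (adjusted p = 0.021). Dpp4, a peptidase that removes N-terminal dipeptides, fell by 0.68 ± 0.19 (adjusted p = 0.038), and the ceramidase gene Asah2 fell by 0.87. In Cy3 Mep1a and Dpp4 differed by 0.80 and -0.62 and did not pass (adjusted p = 0.061 and 0.069). At 12 h 3 of the 9 rose and 0 fell, against 4.9% and 6.02% of all probes. Of these 0 were called in Cy3, and with median centring 0 rose and 1 fell. At 24 h 2 rose and 0 fell (3.79% and 6.26% of all probes), and with median centring 1 rose and 0 fell. At 24 h the maltase-glucoamylase gene Mgam rose by 1.13 ± 0.26 and the aminopeptidase gene Xpnpep2 by 1.80 ± 0.51, and the latter passed in Cy3 as well (1.35, adjusted p = 0.025).

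In the list of the microvillus cytoskeleton and scaffold, 5 of 19 genes besides Vil rose and 2 fell at 72 h. Of all probes 4.8% rose and 5.8% fell. The list's counts were 7 and 1 with loess within arrays, and 1 and 3 with median centring. Of the 5 rises 1 and of the 2 falls 2 were also called in Cy3. Baiap2l1, which links membrane and actin, rose by 1.20 ± 0.15, and by 1.46 in Cy3 (adjusted p = 5e-04). The keratin gene Krt18 rose by 1.08 ± 0.30 on the ratio, but its Cy3 change of 0.62 did not pass (adjusted p = 0.37). Ezr, the gene of ezrin that ties actin to the membrane, rose by 0.65 ± 0.19 (adjusted p = 0.041), but its sign turned to -0.075 with median centring. The Cy3 change of Ezr, 0.61, did not pass (adjusted p = 0.098). Krt8, the keratin partner of Krt18, fell by 0.73, and the scaffold gene Pdzk1 fell by 0.89, whereas their other probes differed by 0.30 and 0.73 and did not pass. The plastin gene Pls1 differed by 0.72, 0.28 and -0.36 at the 3 time points and did not pass. The actin-binding Eps8 differed by -0.31 on its brightest probe and rose by 1.18 on its other probe.

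At 12 h 8 of these 19 genes rose and 2 fell (4.9% and 6.02% of all probes), and most of this lay in the reference. Krt19 rose by 3.57 on the ratio, with 0.44 in Cy3 and -3.13 in Cy5. It was 1.73 without 12 h replicate 3, 2.74 without fed replicate 3 and 5.38 without 12 h replicate 2, and without both arrays that stood apart for Anpep it was 0.92 and did not pass (adjusted p = 0.064). Espn, which bundles actin, rose by 2.05 on the ratio from 1 usable 12 h array, with -0.63 in Cy3. Cdhr5, a cadherin of the microvillus tip, rose by 2.57 at 12 h and 2.00 at 24 h, with Cy3 changes of 1.35 and 1.32 that did not pass (adjusted p = 0.063 and 0.051). Eps8 fell by 1.01 and Pdzk1 by 0.61, with Cy3 changes of 0.10 and -0.34.

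Of 12 other genes of endocytosis, vitamin and lipid absorption, 1 rose and 0 fell at 72 h, against 4.8% and 5.8% of all probes. Lipc, the gene of hepatic lipase, rose by 1.88 ± 0.37 (adjusted p = 0.0056) and by 1.94 in Cy3. Lrp2, which codes for megalin, the partner of cubilin in the kidney, differed by 0.55, 0.40 and 0.23 and did not pass. Dgat2, an enzyme of triglyceride synthesis, fell by 1.61 at 12 h, all of it in Cy3 (-1.61), but with 1 usable fed array. Of 11 epithelial transcription factor genes, limma called 0 at 72 h, and 2 had an unadjusted p under 0.05. At 12 h 2 rose and at 24 h 3 rose, where 4.9% and 3.79% of all probes rose. For Klf5 and Elf3 these changes were called in Cy5 and not in Cy3. The 12 h rise of Klf5, 2.91, rested on 1 usable 12 h array and had -0.022 in Cy3.

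Markers of other cells of the gut wall were followed beside these lists. At 12 h 5 of 9 smooth muscle genes rose and 0 fell, at 24 h 3 rose, and at 72 h 2 rose and 1 fell. With median centring 1 and 2 muscle genes rose at 12 h and 24 h, and at 72 h 1 rose and 2 fell. Their mean log2(Cy3/Cy5) ranged over the pools from -0.41 to 0.01 in fed, 0.46 to 1.22 at 12 h, 0.32 to 0.49 at 24 h and -0.27 to 0.01 at 72 h, so that muscle transcripts lay above fed in all pools at 12 h and 24 h and overlapped fed at 72 h. The means of the brush-border hydrolases and of the microvillus list lay above fed in all pools at 12, 24 and 72 h. At 72 h they were 0.0020 to 0.093 and 0.037 to 0.25, against -0.41 to -0.063 and -0.33 to 0.022 in fed. The mean of the calcium, iron and phosphate list overlapped fed at 12 h and 24 h. At 72 h it lay below fed in all pools, at -0.55 to -0.43 against -0.14 to 0.23. Of 3 goblet cell genes, 2 rose at 24 h (0 with median centring) and 1 fell at 72 h, each in Cy3 as well. Their mean was -0.19 to -0.10 in fed, -0.21 to 0.41 at 12 h, 0.052 to 0.57 at 24 h and -0.61 to -0.37 at 72 h, where it lay below fed in all pools. Of 7 erythroid genes 2 rose at 12 h and 1 rose at each later time point, and only the rise at 72 h was called in Cy3 as well. Their mean was -0.15 to -0.11 in fed and 0.11 to 0.13 at 72 h. Hba-a1 and Hbb-b1 were not analysed here. Of 2 Paneth cell genes 1 rose at 12 h without a call in Cy3, and the 1 pancreatic gene did not pass. The part of other cells in the results above was not tested.

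Between fasted time points the 73 list genes differed as well. Over the step from 12 h to 24 h, within a file format, 2 rose and 3 fell (2.92% of all probes were called). On this step 14 of the 73 were called in Cy5, and 1 rise and 0 falls were called in Cy3 as well. From 24 h to 72 h, across formats, 4 rose and 10 fell (10.6% of all probes). In the list of calcium, iron and phosphate absorption 0 of 15 rose and 5 fell over this later interval, 4 of them in Cy3 as well, and the list's median difference was -0.43.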

How the data were processed

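RNA of 12 pools of mouse small intestine, 3 for each of 0 (fed), 12, 24 and 72 h of fasting, was measured on 2-colour arrays. The authors deposited Feature Extraction output that gives for every spot the median intensity of its foreground and of its background in each channel, without correction or normalization. The deposited files also hold the software's log10 ratio of Cy5 over Cy3, and the authors' value table, also deposited, holds the same ratio with the sign turned. In 362 cells of this ratio the size passed 2; 275 were scaled back by decimal places and 87 were left out.

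From the intensities, normexp (offset 50) was applied, 1075 control and 91 retired spots of 21446 were dropped, spots marked as outliers were left out, and the 24 channels were quantile normalized. For 20280 probes, log2(Cy3/Cy5), Cy3 and Cy5 were modelled by time point over all 12 arrays in limma (version 3.58.1, under R 4.3.3), with Benjamini-Hochberg adjustment over all probes. The study's own analysis of variance was not repeated. Fits were tested on simulated data. Plots used matplotlib 3.10.9 and the files were read with the data.table package (version 1.17.8).

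Names are those of the 12 h files; the fed files name Anpep, LOC226413, Car1 and Cubn otherwise. Current symbols of 10082 probes came from RefSeq's gene annotation of GRCm38.p6. Members and lists were chosen with earlier results of these data known. Tests of members between fasted time points had been planned, but nothing shows that the choice did not rest on those values, so that the differences are given without p. Mga, Mbd1 and Clca1, which in these files name other genes than the lists mean, were left out of them. Named genes are all members, per time point the 4 largest rises and 4 largest falls among called list genes whose fasted pools lay on 1 side of all fed pools, and 15 fixed names, each on its brightest probe; Asah2, Ftl1, Car14, Krt8, and the second probes were named after their values were seen. The values of 1 list gene are not reported here. The pools of a number hold different mice. Same-numbered pools deviated together at r of -0.29 to 0.13, over 0.1 in 2 of 18 pairs, so that the numbers were not taken as pairs. P-values measure the spread between pools. The number of arrays limits the precision. The alternatives tried were other background corrections, normalizations, channels, spot filters, sample sets and a replicate block.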

Additional observations from a re-analysis of the deposited data

Results flagged for a closer look

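Calb3 differed between fasting times: its log2(Cy3/Cy5) at 24 h lay below that at 12 h by -1.24 (SE 0.20). All 3 pools at 24 h lay below all 3 at 12 h, as for 10.9% of all probes. The gene was chosen with its values known, so the difference is a description without a test.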

How the results depend on the processing

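Results are given here as the count of the 73 list genes called against fed, or as the difference of log2 ratios. At 12 h the 23 called genes became 11 with the Feature Extraction log ratio, 7 in Cy3 alone, 0 with only the 12 h and fed arrays and 13 with the replicate block. At 24 h the 10 became 20 in Cy3 alone and 16 with only the 24 h and fed arrays. Leaving out 1 array at a time gave 10 to 36 genes at 12 h, 2 to 21 at 24 h and 10 to 25 at 72 h. At 12 h the count was 10 without fed replicate 3, 11 without 12 h replicate 3, 14 without fed replicate 1 and 36 without 12 h replicate 1. At 24 h it was 2 without fed replicate 1, 6 without fed replicate 3, 21 without 12 h replicate 3, and 3 to 5 without 1 of the 24 h arrays; at 72 h it was 10 without 72 h replicate 1 and 11 without 72 h replicate 2. Without fed replicate 3 and 12 h replicate 3 together, chosen after seeing the data, the counts were 11, 18 and 22. The 72 h count kept within 1.5 times under the other alternatives run, between 13 and 25.

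Calb3 from 12 h to 24 h was -0.88 with median centring and -1.24 with only those arrays, and -1.37 to -1.12 with 1 array left out. Anpep from 24 h to 72 h was -0.89 with only those arrays and -0.99 to -0.77 with 1 array left out. Car1 ranged from -0.55 to 0.66 with 1 array left out, reversed to -0.55 without 72 h replicate 2. Cubn ranged from -0.65 to -0.38, and was -0.55 without both arrays named above, where Anpep was -0.90. Vil ranged from 0.41 to 0.51. In Cy3 alone Klf5 (-0.022), Espn (-0.63) and Eps8 (0.10) at 12 h and Pls1 (-1.03) at 24 h turned sign, as did Ezr at 72 h with median centring (-0.075). The cause was not tested. Leaving out 1 array ended the call of Krt19 and Eps8 at 12 h (fed replicate 3 or 12 h replicate 3), of Tfrc at 72 h (fed replicate 3) and of Mep1a at 72 h (fed replicate 1, fed replicate 2 or 72 h replicate 2), with adjusted p of up to 0.13, 0.14, 0.078 and 0.17, and it ended that of Mgam at 24 h without fed replicate 1, 24 h replicate 1 or 24 h replicate 2 (0.13). For Pdzk1 at 12 h, for Cdhr5, Xpnpep2, Elf3, Slc40a1 and Slc34a2 at 24 h, and for Krt18, Dpp4 and Ezr at 72 h, 4 or more of the 12 arrays each did so. The replicate block, which shares only a number between pools, lowered the 12 h count from 23 to 13 and moved no other count by over 1.5 times. A block for file format could not be fitted, since each time point lies within 1 format. Of the members Car1 lay closest to background, and Cy5 lies close to background for most probes.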
